A study of Homo sapiens with 6 samples.

Results

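Classical cadherins and their catenin partners were followed as a set of 10 named genes, 6 cadherins (CDH1, CDH2, CDH3, CDH4, CDH11 and CDH13) and 4 catenins (CTNNB1, JUP, CTNNA1 and CTNND1), out of 65198 gene rows. They were chosen by name and taken from the table by Ensembl identifier, with symbols from GENCODE 29, and all 10 were found. Poly(A) RNA of MDA-MB-231 cells, an established human breast cancer line that the labels class as basal-like, was sequenced. In shHOTAIR cells a hairpin against HOTAIR, a long non-coding RNA from the HOXC locus, was under tetracycline control (Tet-shHOTAIR), and in shCtrl cells a scrambled hairpin was (Tet-shCtrl). Doxycycline was added to both at 1 µg/ml for 96 h, and each group had 3 libraries. The labels give 1 kind of cell per hairpin and do not say whether libraries came from separate cultures, so p-values measure the spread between these libraries, which may be technical. The comparison asks which of these adhesion genes differed in level when HOTAIR was targeted.

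Cadherins are transmembrane proteins that bind their like on a neighbouring cell in the presence of calcium. In a classical cadherin the cytoplasmic tail binds beta-catenin or plakoglobin, which recruit alpha-catenin and with it the actin cytoskeleton, while p120-catenin binds closer to the membrane and keeps the cadherin on the cell surface. Beta-catenin is also the transcriptional effector of Wnt signalling. Loss of E-cadherin with gain of N-cadherin or cadherin-11 is a textbook mark of the mesenchymal state in carcinoma cells, and MDA-MB-231 is known as a mesenchymal-like line with little E-cadherin.

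Expression was given as FPKM, fragments scaled by transcript length and by library depth, so levels of different genes can be set side by side on that scale. The number of fragments per library is not given, so the depth behind a low value is unknown. The test was limma on log2(FPKM + 1) for the 15934 genes that averaged 1 FPKM or more across the 6 libraries. An adjusted p under 0.05 was reached by 23.8% of them, 11.5% higher and 12.4% lower in shHOTAIR, and the FPKM of the groups did not overlap in 43.0%. HOTAIR itself was listed at 0, 0 and 0.0113 FPKM in shHOTAIR and at 0, 0.0128 and 0.0132 FPKM in shCtrl libraries, so its knockdown could not be checked. Markers of the line were present, with CD44 at 480 ± 43.9 FPKM in shHOTAIR and 475 ± 26 FPKM in shCtrl and VIM at 393 ± 27.3 FPKM in shHOTAIR and 948 ± 37.1 FPKM in shCtrl (SD, n = 3 each). Of 5 mesenchymal markers tested 2 were higher (CAV1, AXL) and 2 lower (VIM, MSN), and of 4 epithelial markers tested KRT8, KRT18 and CLDN4 were higher and KRT19 lower. The calls of CLDN4, KRT19 and KRT8 were lost on leaving out 5, 4 and 3 of the libraries, one at a time (KRT8 without shHOTAIR 2, shCtrl 2 or shCtrl 3, KRT19 without shHOTAIR 1, shHOTAIR 2, shCtrl 1 or shCtrl 3, and CLDN4 without any library other than shHOTAIR 1). Of the epithelial markers below the minimum mean, ESRP2 was at 0.26 ± 0.0499 FPKM in shHOTAIR and 1.21 ± 0.216 FPKM in shCtrl, and CLDN7 at 0.3 ± 0.0183 FPKM in shHOTAIR and 1.37 ± 0.299 FPKM in shCtrl, neither with overlapping groups. ESRP1 averaged 0.0352 FPKM in shHOTAIR and 0.227 FPKM in shCtrl, and GRHL2 0.00711 FPKM in shHOTAIR and 0.0659 FPKM in shCtrl. The part of these markers in the results below was not tested. The epithelial marker EPCAM did not exceed 0.0957 FPKM in any library, and SPARC, listed as a mesenchymal marker, did not exceed 0.469 FPKM. Summed over their lists, 8 fibroblast markers came to 4.48 to 6.0 FPKM in shHOTAIR and 2.73 to 3.44 FPKM in shCtrl, and COL1A1 among them was higher, at 3.51 ± 0.282 FPKM in shHOTAIR and 1.33 ± 0.251 FPKM in shCtrl (log2 change 0.96, limma adjusted p = 0.00572). The 6 endothelial markers came to 2.23 to 3.0 FPKM in shHOTAIR and 1.64 to 2.01 FPKM in shCtrl. The 6 leukocyte markers came to 16.4 to 19.9 FPKM in shHOTAIR and 21.6 to 22.5 FPKM in shCtrl, nearly all of it CD68, with PTPRC at most 0.236 FPKM.

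Of the 10 genes, 6 reached the minimum mean and 4 did not. Among the 6, CDH11, CDH4, CTNNB1 and JUP rose in shHOTAIR and 0 fell, against 11.5% of all genes tested that were higher. JUP reached the minimum only through its shHOTAIR libraries, so the count of 4 includes a gene that could pass in no other way. CTNNA1 and CTNND1 did not pass. Without shHOTAIR 2, shHOTAIR 3 or shCtrl 1 only 2 of the 4 calls were made. Fewer cells with a transcript and less of it per cell cannot be told apart in such bulk RNA.

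**Figure D1:**
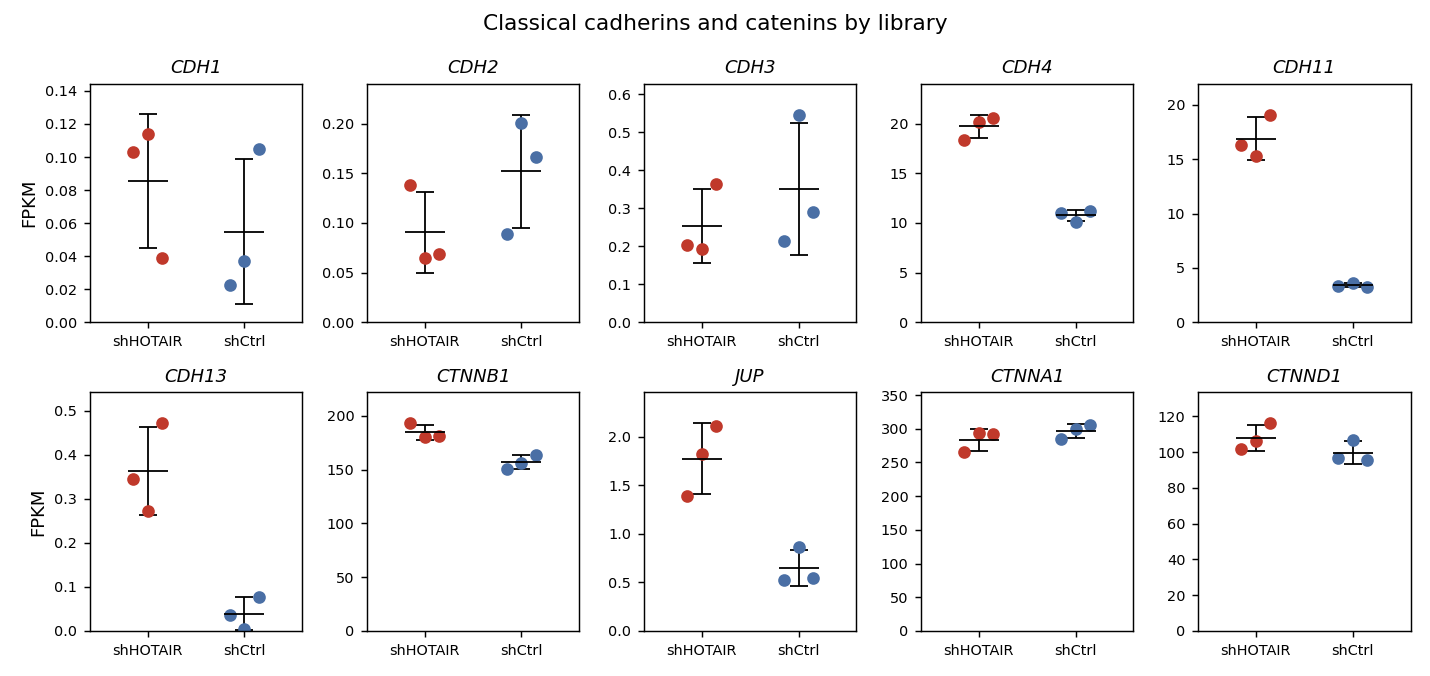
FPKM of the 6 cadherin and 4 catenin genes in each library, with a separate linear axis from 0 for each gene. Points are libraries, and the bar and whiskers are the mean and SD over 3 libraries. The shHOTAIR points of CDH4, CDH11, CDH13, CTNNB1 and JUP all lie above the shCtrl points, and those of the other 5 genes overlap.

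The genes spanned more than 3 orders of magnitude in level, and the 6 highest had the same order of means in both derivatives. In shHOTAIR the highest was CTNNA1 (284 FPKM on average), followed by CTNNB1 (185), CTNND1 (108), CDH4 (19.7), CDH11 (16.9), JUP (1.77), CDH13 (0.363), CDH3 (0.253), CDH2 (0.0904) and CDH1 (0.0852). The libraries of CDH4 and CDH11 overlapped, as did those of CDH13 and CDH3 and those of CDH2 and CDH1. In shCtrl the same 6 genes led in the same order, at 297, 157, 99.6, 10.8, 3.38 and 0.644 FPKM. There CDH4 and CDH11 did not overlap, while the libraries of JUP and CDH3 did. Below them in shCtrl came CDH3 (0.35), CDH2 (0.152), CDH1 (0.0548) and, last, CDH13 (0.0392). The 3 abundant catenins lay at the 92.5th percentile of annotated protein-coding genes or above, while CDH4 and CDH11 lay at the 65.8th and 60.0th.

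CDH11, also known as OB-cadherin, a type II cadherin of osteoblasts and other mesenchymal cells, had the largest log2 change of the 6 genes that reached the minimum mean. Its level was 16.3, 15.3 and 19.1 FPKM in shHOTAIR 1, 2 and 3, against 3.29, 3.59 and 3.26 FPKM in shCtrl 1, 2 and 3. The lowest shHOTAIR library stood far above the highest shCtrl library. The ratio of the group means was 5.0, and the log2 change was 2.03 (SE 0.0968, 95% interval 1.79 to 2.27, limma adjusted p = 0.000418), rank 32 from the top among 11587 protein-coding genes tested. The call held in all 17 alternative settings and left-out libraries, with a log2 change of 1.94 to 2.31. CDH11 lies on the minus strand at chr16:64943753-65126112 (GRCh38), and no annotated gene that overlaps it exceeded a group mean of 0.00558 FPKM.

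CDH4, or R-cadherin, a type I cadherin first described in the retina, had the highest mean FPKM of the 23 CDH genes examined in both derivatives. It was at 18.4, 20.2 and 20.6 FPKM in shHOTAIR, against 11, 10.1 and 11.2 FPKM in shCtrl libraries. The groups were separate, and the SD was 1.21 FPKM in shHOTAIR and 0.599 FPKM in shCtrl. The log2 change was 0.82 (SE 0.0706, limma adjusted p = 0.00165), a 1.83-fold difference in means, and it held in all 17 alternatives (0.78 to 0.89). CDH4 spans 688192 bp on the plus strand at chr20:61252426-61940617.

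The other 4 cadherins stayed below a mean of 1 FPKM, and it is not known on how many fragments their values rest. Their values come from a separate fit of the 36141 genes with any value above 0. Of all genes in that fit, 8.89% were called in either direction, 4.55% were called higher, and 26.6% had groups that did not overlap. CDH1, E-cadherin of epithelia, was at 0.103, 0.114 and 0.0391 FPKM in shHOTAIR, against 0.0225, 0.037 and 0.105 FPKM in shCtrl libraries, with overlapping groups. Its log2 change was 0.04 (95% interval -0.07 to 0.15, limma adjusted p = 0.611), so neither group held more than a trace of CDH1. CDH2, N-cadherin of neural and mesenchymal cells, was at 0.138, 0.0647 and 0.0686 FPKM in shHOTAIR and 0.0889, 0.201 and 0.166 FPKM in shCtrl (log2 change -0.08, limma adjusted p = 0.451). CDH3, P-cadherin of placenta and basal epithelia, was at 0.202, 0.192 and 0.364 FPKM in shHOTAIR and 0.214, 0.546 and 0.29 FPKM in shCtrl (log2 change -0.10, limma adjusted p = 0.625). Both overlapped between the groups. After centring on neighbouring genes, whose median log2 changes were -0.21 and -0.19, they were at 0.13 and 0.07, neither called. CDH1, with neighbours at -0.19, moved in the same way to 0.21 (limma adjusted p = 0.0677). At such levels the added 1 holds values near 0, so the centred values largely carry the change of the neighbours. CDH3 and CDH1 are neighbours on the plus strand of chromosome 16, with 14608 bp between them.

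CDH13, T-cadherin, is anchored to the membrane by a lipid and lacks the tail that binds catenins. It was at 0.346, 0.272 and 0.471 FPKM in shHOTAIR, against 0.0368, 0.00362 and 0.0773 FPKM in shCtrl libraries. Every shHOTAIR library was above every shCtrl library, with the shCtrl values close to 0. The log2 change was 0.39 (SE 0.0641, limma adjusted p = 0.0241 in the fit of all genes above 0) on a scale that the added 1 compresses strongly at such levels. The call was lost without shHOTAIR 1 and without shCtrl 1, 2 or 3 (adjusted p up to 0.0914). It was also lost with a pseudocount of 0.01 (0.0748) and with the replicate number as a block (0.0743). CDH13 spans 1173838 bp at chr16:82626803-83800640 and overlaps antisense genes, of which AC009119.1 averaged 0.164 FPKM in shHOTAIR and 0.0515 FPKM in shCtrl. How strand was treated in counting is not known here, so reads of such pairs may be shared.

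Within the sum of the 6 cadherins the make-up differed, as follows from the unequal rises of CDH11 and CDH4. The 6 cadherins summed to 35.4, 36.2 and 40.7 FPKM in shHOTAIR, against 14.7, 14.5 and 15.1 FPKM in shCtrl libraries. CDH11 made up 45.9%, 42.3% and 47.0% of that sum in shHOTAIR and 22.4%, 24.9% and 21.7% in shCtrl libraries. CDH4 made up 51.9%, 55.9% and 50.7% in shHOTAIR and 75.1%, 69.7% and 74.1% in shCtrl libraries. Its share of this sum was thus lower in shHOTAIR while its level was higher. The sum leaves out CDH18, which averaged 9.42 FPKM in shHOTAIR and 8.73 FPKM in shCtrl, and CDH24. Both averaged more than CDH11 in shCtrl. Shares depend on which cadherins are summed, and those in a wider sum were not computed. The lower share of CDH4 therefore holds only within these 6 genes. The log2 ratio of CDH11 to CDH4, which library scaling cannot alter, was -0.229 ± 0.155 in shHOTAIR and -1.67 ± 0.158 in shCtrl (SD, n = 3 each), a difference of 1.44. CDH1, CDH2, CDH3 and CDH13 held at most 1.16% each in shHOTAIR and at most 3.78% in shCtrl libraries. Each share of CDH11 and CDH4 and their ratio gave p = 0.1 in an exact two-sided permutation test, the smallest that 3 against 3 libraries allow. These are not separate results, since CDH11 and CDH4 made up nearly all of the sum. In all, 10 shares and ratios were tested in this way, without adjustment, and none could reach 0.05.

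**Figure D2:**
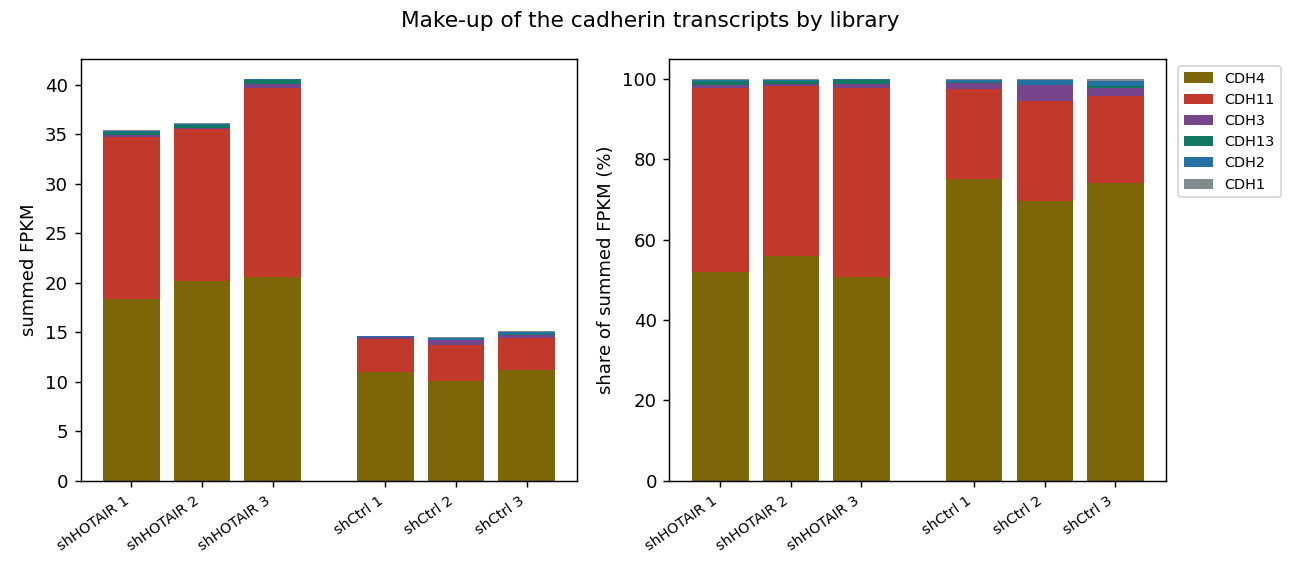
Summed FPKM of the 6 cadherins (left, stacked bars from 0) and the percentage of each in that sum (right), by library. In the 3 shHOTAIR bars CDH11 fills 42.3% to 47.0%, and in the 3 shCtrl bars 21.7% to 24.9%.

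Among the catenins, CTNNB1, beta-catenin, rose by a small amount. It was at 193, 180 and 181 FPKM in shHOTAIR, against 151, 156 and 164 FPKM in shCtrl libraries. The groups did not overlap, though the lowest shHOTAIR and the highest shCtrl library were close. The log2 change was 0.23 (SE 0.0561, 95% interval 0.09 to 0.37, limma adjusted p = 0.0344), a 1.18-fold difference in means. The call was lost on leaving out shHOTAIR 1, 2 or 3 or shCtrl 1 or 2 (adjusted p up to 0.0852). It was also lost without an intensity trend (0.0543), with no filter on low values (0.0537) and with the replicate number as a block (0.13). In FPKM the difference of 27.6 was larger than the 13.5 of CDH11. CTNNB1 lies at chr3:41194741-41260096 and overlaps ULK4 on the other strand, which averaged 2.22 FPKM in shHOTAIR and 2.31 FPKM in shCtrl.

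JUP, plakoglobin or gamma-catenin, takes the place of beta-catenin in some adherens junctions and is a core part of desmosomes. It was at 1.39, 1.82 and 2.11 FPKM in shHOTAIR, against 0.526, 0.858 and 0.548 FPKM in shCtrl libraries. All shHOTAIR libraries lay above all shCtrl libraries, at low levels in both. The log2 change was 0.75 (SE 0.184, 95% interval 0.30 to 1.21, limma adjusted p = 0.0354) and the ratio of means 2.75. The call was lost without shHOTAIR 2, shHOTAIR 3, shCtrl 1 or shCtrl 3 (adjusted p up to 0.0673), with quantile normalization (0.0502) and with no filter (0.054). With the replicate number as a block it was lost too (limma adjusted p = 0.104). JUP lies on the minus strand at chr17:41754604-41786931 and overlaps no other annotated gene.

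CTNNA1, the alpha-catenin that links the complex to actin, was at 265, 294 and 292 FPKM in shHOTAIR and 285, 300 and 306 FPKM in shCtrl libraries. The groups overlapped, with a log2 change of -0.07 (95% interval -0.22 to 0.09, limma adjusted p = 0.48). CTNND1, p120-catenin, was at 102, 106 and 116 FPKM in shHOTAIR and 96.5, 107 and 95.5 FPKM in shCtrl libraries. They overlapped too, and the log2 change was 0.11 (95% interval -0.07 to 0.29, limma adjusted p = 0.323). CTNND1 shares its strand and part of its span with the read-through gene TMX2-CTNND1, which averaged 8.74 FPKM in shHOTAIR and 9.36 FPKM in shCtrl, and with AP001931.1, at 2.02 FPKM in shHOTAIR and 1.54 FPKM in shCtrl. How reads were divided among these genes is not known, so the level of CTNND1 is uncertain. A rise of the size seen in CTNNB1 (0.23) lies inside the interval of CTNND1 and outside that of CTNNA1.

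**Figure D3:**
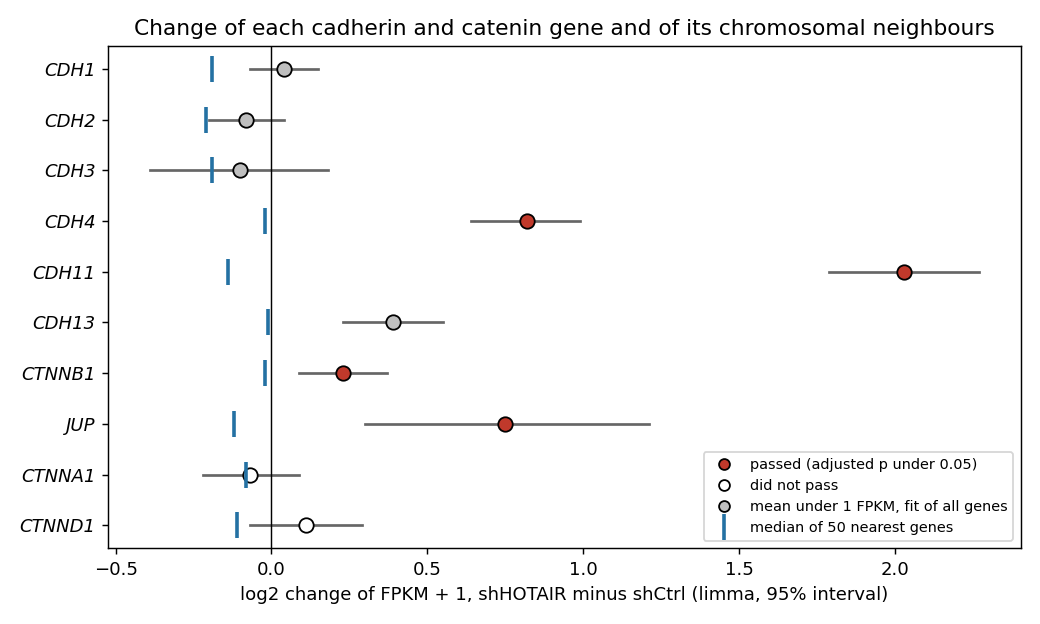
log2 change of FPKM + 1 (shHOTAIR minus shCtrl) of each gene with its 95% interval from limma, and the median log2 change of the 50 nearest protein-coding genes tested (blue ticks). Red points passed, white points did not, and grey points are genes under 1 FPKM from the fit of all genes above 0, CDH13 at 0.39 among them. CDH11 lies at 2.03, CDH4 at 0.82, JUP at 0.75 and CTNNB1 at 0.23, while all blue ticks lie between -0.21 and -0.01.

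Ratios within a library set the catenins against each other without any scaling. The log2 ratio of CTNNA1 to CTNNB1 was 0.458, 0.709 and 0.687 in shHOTAIR and 0.918, 0.94 and 0.899 in shCtrl libraries. It was lower in every shHOTAIR library, by 0.301 on average (exact two-sided permutation test, p = 0.1, the smallest possible). The ratio of CTNND1 to CTNNB1 was -0.778 ± 0.133 in shHOTAIR and -0.658 ± 0.116 in shCtrl (SD, n = 3 each, exact p = 0.4), with overlapping libraries. JUP stood far below CTNNB1 throughout, at a log2 ratio of -6.72 ± 0.357 in shHOTAIR and -7.97 ± 0.397 in shCtrl, so transcripts of plakoglobin were rare beside those of beta-catenin in both derivatives. The sum of the 6 cadherins also stayed below CTNNB1, at a log2 ratio of -2.44, -2.31 and -2.16 in shHOTAIR and -3.36, -3.44 and -3.44 in shCtrl libraries. That ratio was higher by 1.11 in shHOTAIR, and the groups were far apart. It carries the rises of CDH11 and CDH4, and the sum leaves out other cadherins such as CDH18.

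**Figure D4:**
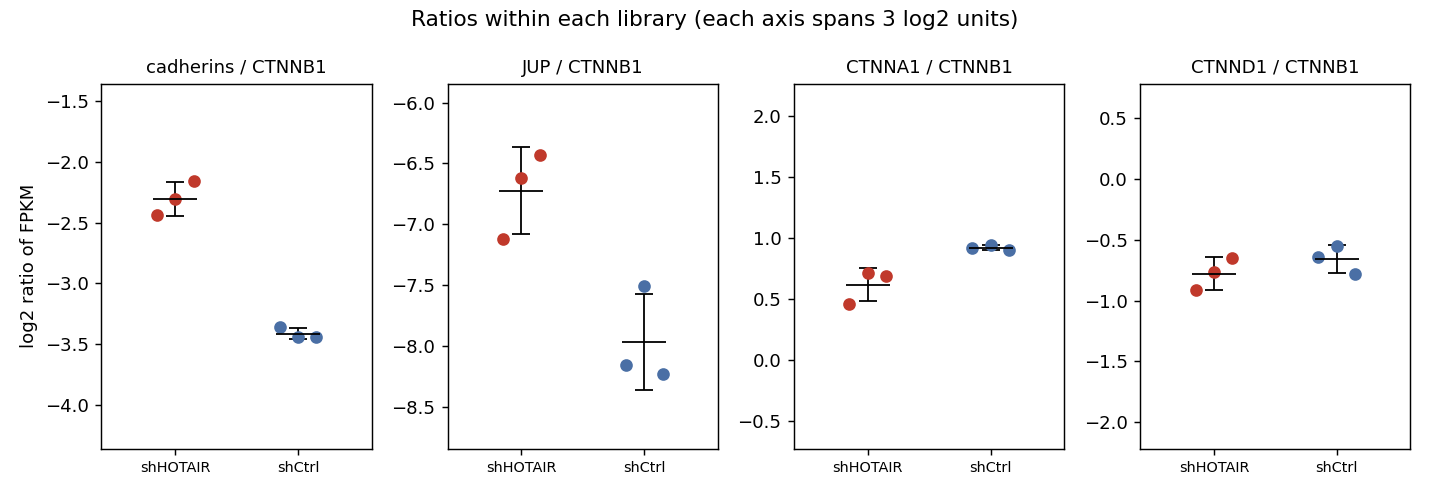
log2 ratios of FPKM within each library, with points for libraries and bar and whiskers for the mean and SD over 3. Each axis spans 3 log2 units. The groups are apart for the sum of the 6 cadherins and for JUP over CTNNB1 (higher in shHOTAIR). They are also apart for CTNNA1 over CTNNB1 (lower in shHOTAIR), and overlap for CTNND1 over CTNNB1.

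Genes near the 10 on their chromosomes had median log2 changes between -0.21 and -0.01. CDH1, CDH3, CDH11 and CDH13 all lie on chromosome 16, where 27 of 522 protein-coding genes tested were higher in shHOTAIR and 68 lower, with a median log2 change of -0.10 against -0.03 for all protein-coding genes tested. The 50 protein-coding genes nearest to CDH11 had a median log2 change of -0.14, those nearest to CDH4 -0.02, to CTNNB1 -0.02 and to JUP -0.12. After subtraction of the neighbours in each library, a setting in which 14.5% of genes were called and 7.67% were higher, CDH11 (log2 change 2.20), CDH4 (0.80), JUP (0.88) and CTNNB1 (0.28) were called, with limma adjusted p of 0.00044, 0.00132, 0.0333 and 0.024.

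Promoter windows of some of the changed genes are shown because the sequence CAGGTG, bound by SNAI and ZEB repressors, is a known control element of the E-cadherin gene. RefSeq windows of 250 bases before and 50 after a transcript start (GRCh38.p14) were at hand for 5 of the 10 genes, CDH2, CDH4, CTNNA1, CTNNB1 and JUP. No window was at hand for CDH11 or for CDH1 itself. That motif, CCAAT (the site of the NF-Y factor) and CTTTGA (the core of sites for the partners of beta-catenin) were searched on both strands in the windows of CDH4, CTNNB1 and JUP. They do not overlap each other, and capitals mark matches. JUP has a window at chr17:41786662-41786961 and a second at chr17:41785927-41786226, both minus strand. The first CDH4 window lies at chr20:61499171-61499470 and the second at chr20:61599511-61599810, both plus strand. Both are inside the annotated span of CDH4, which starts at 61252426, and the sequence at that start was not searched.
JUP window 1: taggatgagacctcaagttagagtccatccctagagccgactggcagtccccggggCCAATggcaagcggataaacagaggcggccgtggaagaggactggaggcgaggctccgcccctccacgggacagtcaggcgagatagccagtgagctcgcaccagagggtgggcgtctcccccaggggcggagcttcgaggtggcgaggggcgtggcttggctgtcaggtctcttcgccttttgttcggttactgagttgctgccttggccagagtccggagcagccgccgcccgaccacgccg
JUP window 2: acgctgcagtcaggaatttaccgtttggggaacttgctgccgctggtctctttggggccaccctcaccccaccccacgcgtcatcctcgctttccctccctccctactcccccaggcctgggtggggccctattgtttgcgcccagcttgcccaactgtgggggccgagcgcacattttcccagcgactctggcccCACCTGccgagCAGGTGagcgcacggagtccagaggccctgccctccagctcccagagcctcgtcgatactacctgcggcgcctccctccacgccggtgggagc
CDH4 window 1: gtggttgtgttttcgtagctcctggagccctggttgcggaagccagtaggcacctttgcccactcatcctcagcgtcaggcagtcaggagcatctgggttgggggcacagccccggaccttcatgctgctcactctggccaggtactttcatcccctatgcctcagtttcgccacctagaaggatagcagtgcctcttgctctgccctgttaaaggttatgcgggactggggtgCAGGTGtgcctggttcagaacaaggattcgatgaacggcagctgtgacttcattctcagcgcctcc
JUP window 2 holds CAGGTG at 2 places, 54 and 43 bases upstream of the start, once on each strand, and CDH4 window 1 holds it 16 bases upstream. JUP window 1 holds CCAAT 194 bases upstream. The CTNNB1 window and the second CDH4 window hold none of the 3 motifs. Of all 35116 RefSeq windows, 20.6% hold CAGGTG, 34.6% CCAAT and 12.9% CTTTGA. A match describes the sequence, and no binding was measured.

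Among genes that encode repressors of CDH1, SNAI2 was called higher and ZEB1 lower, the latter with a call that did not hold in many settings. SNAI2, the zinc finger repressor Slug, was at 27.3, 24.3 and 24.2 FPKM in shHOTAIR, against 7.83, 10.2 and 9.08 FPKM in shCtrl libraries. It rose by a log2 change of 1.39 (limma adjusted p = 0.00116), kept in all 17 alternatives. ZEB1 fell to 28.1 ± 3.67 FPKM in shHOTAIR, against 36.6 ± 1.82 FPKM in shCtrl (log2 change -0.38, limma adjusted p = 0.0461). The ZEB1 call was lost on leaving out any library other than shHOTAIR 1 and under each other scaling (adjusted p 0.0612 to 0.111), and its sign turned after centring on its neighbours on chromosome 10 (0.21). TWIST1 and TWIST2 were listed at 0 in every library. SNAI1 and KLF8 were below the minimum mean and not tested. SNAI1 was at 0.782, 1.05 and 0.912 FPKM in shHOTAIR and 0.66, 0.421 and 0.297 FPKM in shCtrl libraries. KLF8 averaged 0.614 FPKM in shHOTAIR and 0.731 FPKM in shCtrl, with overlapping groups. Of 5 genes tested in the list of 9, 1 was higher and 1 lower, with a median of -0.11. Over all genes tested 11.5% were higher and 12.4% lower, and the median was -0.03.

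Other members of the cadherin family were mostly at low levels. Of 13 other type I and type II cadherins 4 reached the minimum mean, 0 were called in either direction, and the median log2 change was -0.09. Among all genes tested 23.8% were called in either direction. CDH18 was at 9.42 ± 1.16 FPKM in shHOTAIR and 8.73 FPKM in shCtrl (log2 change 0.09, limma adjusted p = 0.515). CDH10 had a log2 change of -0.47 that did not pass (limma adjusted p = 0.0616), though its groups did not overlap, as in 43.0% of all genes tested. CDH20, the highest of those below the minimum mean, was not tested. It was at 0.0965, 0.315 and 0.379 FPKM in shHOTAIR and 1.07, 0.774 and 0.978 FPKM in shCtrl libraries. Ordered by mean level among 23 CDH genes, CDH11 was in place 2 in shHOTAIR, after CDH4 and ahead of CDH18 and CDH24, and in place 4 in shCtrl, after all of these. Among 17 atypical cadherins, 6 of them tested, FAT4 rose (5.93 ± 0.904 FPKM in shHOTAIR, 2.22 ± 0.536 FPKM in shCtrl, limma adjusted p = 0.00859) and FAT1 fell (29.4, 27.4 and 28.8 FPKM in shHOTAIR, 50.8, 55.1 and 46.5 FPKM in shCtrl, limma adjusted p = 0.00196). FAT1 and FAT4 are giant cadherins related to a fly tumour suppressor. Among the other catenins and p120 relatives 0 of 4 tested were called, and CTNNAL1, an alpha-catenin relative at 351 ± 45.2 FPKM in shHOTAIR and 310 ± 17.2 FPKM in shCtrl, had a log2 change of 0.17 (limma adjusted p = 0.315).

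**Figure D5:**
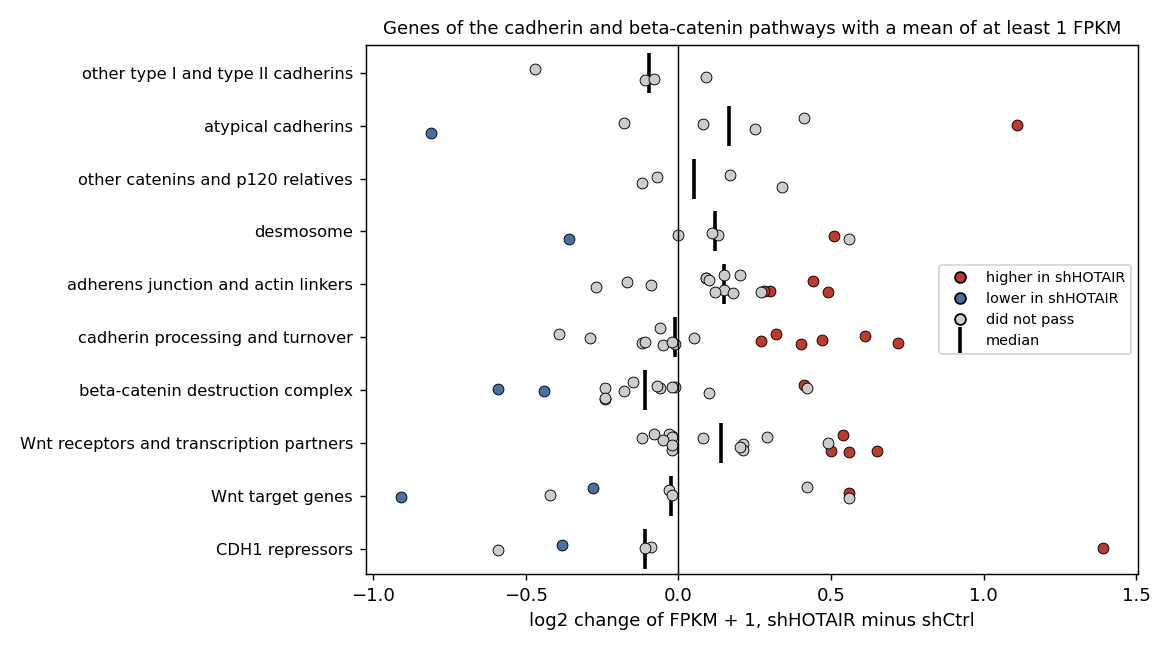
log2 change of FPKM + 1 (shHOTAIR minus shCtrl) of the genes tested, by list. Red points are genes called higher, blue points genes called lower, grey points genes that did not pass, and black ticks the list medians, which lie between -0.11 and 0.17.

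Junction partners changed in part, and the counts stand beside 11.5% higher and 12.4% lower among all genes tested. Of 6 tested desmosome genes DSG2, a desmosomal cadherin to which plakoglobin binds, rose to 42.2 ± 5.07 FPKM in shHOTAIR, against 29.2 ± 0.894 FPKM in shCtrl (log2 change 0.51, limma adjusted p = 0.0148). That call was lost without shHOTAIR 2 or any shCtrl library (adjusted p up to 0.0607). PKP2, plakophilin-2, fell to 13.4 ± 0.489 FPKM in shHOTAIR, against 17.5 ± 0.861 FPKM in shCtrl (adjusted p = 0.0106), and DSP, desmoplakin, had a log2 change of 0.00 (adjusted p = 0.98). Of 16 tested adherens junction and actin linker genes 4 were higher and 0 lower, with a median of 0.15. They were the nectins NECTIN3 (log2 change 0.49) and NECTIN2 (0.30), which are calcium-independent adhesion molecules, SHROOM3 (0.44), which drives apical constriction, and LMO7 (0.28). LMO7 lost its call on leaving out any library other than shCtrl 1 (up to 0.117) and was called lower after centring on its neighbours on chromosome 13 (log2 change -0.35, limma adjusted p = 0.0236). NECTIN3 (0.15, adjusted p = 0.125) and SHROOM3 (0.10, 0.468) did not pass after that centring. VCL, vinculin, which alpha-catenin recruits under tension, had a log2 change of 0.15 (limma adjusted p = 0.207).

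Genes that process cadherins or act on their complexes were called only upwards, 6 of 15 tested with 0 lower, beside 11.5% higher among all genes tested, although the list median was -0.01. The tyrosine phosphatases PTPRF, or LAR, and PTPN1, or PTP1B, both known to act on the cadherin-catenin complex, were higher. PTPRF was at 330 ± 13.6 FPKM in shHOTAIR and 217 ± 11.1 FPKM in shCtrl (log2 change 0.61, limma adjusted p = 0.00247), and PTPN1 at 58.1 ± 3.39 FPKM in shHOTAIR and 41.5 ± 1.45 FPKM in shCtrl (0.47, 0.00499). NCSTN, a subunit of gamma-secretase, which cleaves cadherins in the membrane, was at 105 ± 2.35 FPKM in shHOTAIR and 79 ± 4.95 FPKM in shCtrl (0.40, 0.00766). These 3 calls held in all 17 alternatives. FURIN, the convertase that cuts the prodomain from cadherins, was at 24.9, 33.2 and 37.6 FPKM in shHOTAIR and 19.9, 17.4 and 19.1 FPKM in shCtrl libraries (log2 change 0.72, limma adjusted p = 0.0249). It lost its call on leaving out any library other than shHOTAIR 1 (up to 0.0925) and after centring (0.146). ADAM10, the protease that sheds cadherin ectodomains, and CDC42 completed the count and lost their calls without 5 and 6 of the libraries.

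Of the destruction complex that degrades beta-catenin, 1 of 14 tested genes was higher and 2 lower, with a median of -0.11. Among all genes tested 11.5% were higher and 12.4% lower. TNKS2, a tankyrase that marks axin for degradation, fell to 24.3 ± 1.68 FPKM in shHOTAIR, against 37 ± 1.13 FPKM in shCtrl (log2 change -0.59, limma adjusted p = 0.00313). BTRC, the F-box protein that binds phosphorylated beta-catenin, had a log2 change of -0.44 (adjusted p = 0.0296). Both lie on chromosome 10, and after centring on neighbours TNKS2 was at -0.19 (adjusted p = 0.0727) and BTRC at 0.14 (0.418). CTNNBIP1, an inhibitor of the binding of beta-catenin to TCF factors, was higher (0.41, adjusted p = 0.0417), a call lost on leaving out any library other than shCtrl 2 and after centring (0.314). BTRC lost its call without shHOTAIR 1, shHOTAIR 2, shCtrl 1 or shCtrl 3 (up to 0.0996).

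Wnt receptors and transcription partners had 4 of 18 tested genes higher and 0 lower, with a median of 0.14. For this list and the Wnt targets below, the shares among all genes tested were 11.5% higher and 12.4% lower. The frizzled receptor FZD2 was at 25.4 ± 0.907 FPKM in shHOTAIR and 15.8 ± 0.24 FPKM in shCtrl (log2 change 0.65, limma adjusted p = 0.00124), and FZD7 (0.50) and FZD1 (0.54) were higher too. FZD1 lost its call on leaving out shHOTAIR 2 or 3 (adjusted p at most 0.0573), and FZD7 after centring (0.0562). LEF1, a DNA-binding partner of beta-catenin and also a target gene, was at 19.3 ± 0.938 FPKM in shHOTAIR and 12.8 ± 0.115 FPKM in shCtrl (0.56, limma adjusted p = 0.00229), and at a log2 change of 0.23 after centring (adjusted p = 0.0968). Of 8 tested Wnt target genes, LEF1 was higher and DKK1 and CCND1 lower, with a median of -0.03. DKK1, a secreted Wnt antagonist on chromosome 10, fell to 457 ± 22.9 FPKM in shHOTAIR, against 859 ± 41.8 FPKM in shCtrl (log2 change -0.91, limma adjusted p = 0.00111), and its log2 change after centring was -0.43. CCND1, cyclin D1, had a log2 change of -0.28 (adjusted p = 0.0397) that was lost without any 1 library (adjusted p up to 0.109) and under median-of-ratios scaling (0.0501) and was 0.02 after centring. AXIN2, the most general of these targets, was at 3.05, 4.04 and 2.87 FPKM in shHOTAIR and 2.83, 2.39 and 1.53 FPKM in shCtrl libraries (log2 change 0.42, limma adjusted p = 0.186).

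The protein-coding genes most like CDH11 over the 6 libraries were NMU, a neuropeptide, NFATC1, a calcium-regulated transcription factor, and PDGFB, a growth factor chain. Likeness was the root mean square distance of log2(FPKM + 1) values after centring each gene on its mean, at 0.0844, 0.0925 and 0.0938 log2 units among 11586 genes compared. NMU was at 9.36 ± 0.936 FPKM in shHOTAIR and 1.54 ± 0.275 FPKM in shCtrl. NFATC1 was at 3.09 ± 0.183 FPKM in shHOTAIR and 0.0948 ± 0.0195 FPKM in shCtrl, and PDGFB at 4.03 ± 0.285 FPKM in shHOTAIR and 0.289 ± 0.0796 FPKM in shCtrl. NFATC1 and PDGFB reached the minimum mean only through their shHOTAIR libraries. The likeness is mostly a like log2 change (2.03, 1.9 and 1.97 for NMU, NFATC1 and PDGFB). The added 1 compresses low values, so fold differences in FPKM were not alike.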

How the data were processed

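Per the labels' protocols, poly(A) RNA was selected and libraries were prepared on an automated system. The FPKM values were deposited by the authors, 1 per Ensembl gene and library. TopHat2 2.0.13, DESeq and GRCh38 are named in the submitters' processing notes. The program, annotation and strand setting behind the FPKM are not stated in the labels or notes. Of 65198 rows, 56807 matched GENCODE 29. Columns were assigned by sample titles. No pair of libraries shared more than 0.00628% of equal values above 0 among tested genes.

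Values were analysed as log2(FPKM + 1) with limma 3.58.1 in R 4.3.3 (intensity trend, no replicate block, Benjamini-Hochberg adjustment over all genes tested, threshold 0.05), for genes averaging 1 FPKM or more. Genes below it were read from a fit of all genes above 0. In shHOTAIR and shCtrl libraries the summed FPKM was 1620978 to 1820768 and 2224150 to 2569505. Regional centring subtracted, in each library, the median deviation of the 50 nearest protein-coding genes tested. Single values were compared by exact permutation with scipy 1.17.1 in Python 3.11.15. SE is that of the log2 change, and ± is the SD. The fit was tested on simulated data with independent noise. Changes were placed there only in genes well above the minimum mean, so JUP and the cadherins below 1 FPKM were not covered. From each context list the up to 4 called genes of smallest p are named. Genes given as values without a call, and ADAM10 and CDC42, were chosen after their values were seen. The genes and lists were chosen with earlier results of these data known.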

Additional observations from a re-analysis of the deposited data

How the results depend on the processing

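The calls of CDH4 and CDH11 held under all 17 alternatives, which were pseudocounts of 0.1 and 0.01, other filters, scalings and limma settings, a replicate block, regional centring and each library left out. The number of cadherin and catenin genes called higher was 4, and 2 to 3 with 1 library left out (2 without shHOTAIR 2, shHOTAIR 3 or shCtrl 1), and 0 were lower in any setting. The count over all genes was 3797, and 2470 to 3159 with 1 library left out, 2508 without shCtrl 1 and 2470 without shCtrl 3, and 2309 with regional centring. With a replicate block 1740 genes and 2 of the 10 were called. Same-numbered libraries did not deviate together (correlations of -0.0221, 0.00696 and -0.0307 for numbers 1, 2 and 3), and no library correlated best with its own number. The labels do not say whether the numbers pair the libraries, and these correlations cannot settle it. With no filter on low values the calls of CTNNB1, JUP, LMO7, ADAM10, FURIN, CDC42, BTRC, CTNNBIP1, FZD1, CCND1, ZEB1 and CLDN4 were lost (limma adjusted p 0.0517 to 0.0969). The log2 ratio of JUP to CTNNB1 differed by 0.52 when 1 FPKM was added to each, against 1.24.

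Signs turned with regional centring for CDH2 (0.13), CDH3 (0.07), LMO7 (-0.35, called lower), CDC42 (-0.05), BTRC (0.14), CCND1 (0.02) and ZEB1 (0.21), and with an equal sum over protein-coding genes for CTNNA1 (0.01). The causes were not tested, and at the low levels of CDH2 and CDH3 the centred values largely carry the change of their neighbours. The 4 cadherins below 1 FPKM are limited by a depth that is unknown.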
